A study of Mus musculus with 12 samples.

Results

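The 10 genes described here encode protein parts of the small nucleolar ribonucleoprotein particles (snoRNPs) and other proteins of the nucleolus: Gar1, Dkc1, Nhp2, Nop10, Fbl, Nop56, Nop58, Npm1, Ncl and Wdr12. They were taken by symbol from a table of 33924 genes, in which each had 1 row, and all 10 were among the 10604 genes with enough counts to be tested. The 12 libraries hold 3′ tags of mouse myeloid progenitor RNA, from femur and tibia marrow cells that were live, Lineage-, Sca1- and c-Kit+. Every mouse was Mx+, an allele the labels do not explain, and the sources used here do not give how, or in which other cells, Wt1 was deleted. Old control and young control were Mx+ Wt1+/+, old het and young het were Mx+ Wt1fl/+, and each of the 4 groups had 3 libraries. The labels call old samples chronic and young samples acute without saying what was chronic or acute, so that age and that condition cannot be told apart. They give no age as a number. They do not say that the 3 libraries of a group came from separate animals, and the p-values measure the spread between these libraries.

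SnoRNPs are particles of a short guide RNA and a set of core proteins that modify ribosomal RNA in the nucleolus. H/ACA particles hold the pseudouridine synthase dyskerin (Dkc1) with Nop10, Nhp2 and Gar1, and the same proteins bind the RNA of telomerase. C/D particles hold the methyltransferase fibrillarin (Fbl) with Nop56, Nop58 and a further core protein, Snu13. Nucleophosmin (Npm1) and nucleolin (Ncl) are abundant nucleolar proteins that act in ribosome assembly and transport, and Npm1 is a frequently mutated gene in human acute myeloid leukaemia. Wdr12 forms the PeBoW complex with Pes1 and Bop1, which is needed to mature the large ribosomal subunit. Dividing blood progenitors make many ribosomes and express these genes.

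The reference stretches just before the starts of 3 members are shown because Wdr12 and Nop58 were among the 3 members called between the control groups, and Nop56 is the C/D partner of Nop58 that did not pass the test. They are RefSeq sequence of build GRCm38.p6, printed 5′ to 3′ on the strand of the gene. Each ends before the first transcribed base in the RefSeq or GENCODE annotation, whichever lies further upstream. Wdr12 has several RefSeq starts, all downstream of the end of its stretch, which was set by GENCODE. The Wdr12 stretch is chr1:60098646-60098750 on the minus strand, the Nop58 stretch is chr1:59684756-59684970 on the plus strand and the Nop56 stretch is chr2:130274162-130274411 on the plus strand. Capitals mark CCAAT in either direction, which was met once, as ATTGG in Nop56.
Wdr12: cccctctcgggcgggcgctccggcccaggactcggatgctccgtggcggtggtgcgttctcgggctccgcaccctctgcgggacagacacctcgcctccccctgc
Nop58: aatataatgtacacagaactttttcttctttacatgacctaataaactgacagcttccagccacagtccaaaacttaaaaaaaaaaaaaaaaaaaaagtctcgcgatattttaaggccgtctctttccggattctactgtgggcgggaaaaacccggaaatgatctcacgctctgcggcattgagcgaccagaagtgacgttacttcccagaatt
Nop56: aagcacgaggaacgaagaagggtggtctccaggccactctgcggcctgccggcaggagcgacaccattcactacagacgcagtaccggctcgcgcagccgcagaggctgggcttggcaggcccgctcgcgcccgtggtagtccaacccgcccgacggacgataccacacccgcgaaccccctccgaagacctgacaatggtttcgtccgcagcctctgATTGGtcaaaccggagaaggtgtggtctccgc
The G and C share was 75.2% in the Wdr12 stretch of 105 bases, 40% in the Nop58 stretch of 215 and 65.2% in the Nop56 stretch of 250.

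Promoter windows of 300 bases, 250 before and 50 after a RefSeq start, were at hand for 8 members, not for Npm1 or Fbl, and were searched on both strands. The E box CACGTG, which Myc binds, was in none of the 8, against 8.09% of the 27025 genes with a window. CCAAT, the letters of the CCAAT box, was in 4 of the 8 (Dkc1, Nhp2, Nop10 and Nop56), against 41.1% of all genes with a window. GCGGGGGCG, a site described for WT1 and EGR1, was in none of the 8, against 3.31% of all genes with a window. These are matches of letters in a window and were not tied to any measurement here.

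In GRCm38 with the GENCODE annotation, Wdr12 lies on chromosome 1 at 60069785-60098645 on the minus strand and Nop58 on the same chromosome at 59684971-59719044 on the plus strand. Npm1 lies on chromosome 11 at 33152287-33163206 on the minus strand, and Ncl on chromosome 1 at 86344719-86359400 on the minus strand. The deposited table was made on build mm9 and carries no coordinates. In this annotation 4 members overlap a gene of the other strand. At their 3′ ends, Dkc1 overlaps Mpp1 by 45 bases, Nhp2 overlaps Rmnd5b by 44 and Nop56 overlaps Idh3b by 5. At its 5′ end Wdr12 overlaps Carf by 399 bases, and the Wdr12 stretch printed above lies inside Carf. Over the 12 libraries the counts of Mpp1 were 4.96% of those of Dkc1, Rmnd5b 4.17% of Nhp2, Idh3b 16% of Nop56 and Carf 0.397% of Wdr12. Whether the counting used the strand is not given, so reads in such an overlap cannot be told apart. Npm1 has processed copies elsewhere in the genome, and how reads with several matches were counted is not given either.

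Total counts per library ran from 645460 in young control 2 to 9645502 in old control 1, and the lowest count of a member was 15, for Fbl in young control 2. Old control 1 and young control 3 were left out together in 1 alternative, because earlier results of these data set them apart from their groups. The Y-linked gene Ddx3y had no count in old het 1, young control 3 and the 3 young hets and at least 83 in each other library, so the young controls were mixed in sex-linked RNA. The numbers in the sample titles also set young controls 1 and 2 (29 and 30) apart from young control 3 (18) and the young hets (19 to 21), while the old samples carry 1 to 6. What these numbers stand for is not given, so such a split of the young controls cannot be told apart from sex-linked RNA. Results that turned on young controls 1 and 2 are therefore given below also without them. Such a fit leaves young control 3, a library set apart above, as the only young control. It had no Ddx3y count, while each old control had some. Old against young control and sex-linked RNA therefore cannot be told apart in that fit. Kit, the gene of the sorted c-Kit, was counted in every library. Ly6a, which encodes Sca1, had no count in 9 libraries and at most 1.27 CPM in 2, but 79.0 CPM of all counts in old control 1, against the Sca1- gate. Summed over 12 neutrophil and granulocyte genes, levels ran from 10695 to 25481 CPM of all counts, the scale of all marker sums below. Wt1 had 1 to 23 counts per library and was not tested. A 3′ tag may lie outside the deleted part of Wt1 and then checks nothing about the deletion.

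The 10 mRNAs covered a wide range of levels (CPM of 3′ tags, mean of the 12 libraries). Whether tags per mRNA were alike between genes was not tested, so the order below is that of tags. Ncl had the most at 5139 CPM, followed by Dkc1 at 1219, Npm1 at 937, Nop58 at 672 and Wdr12 at 498. Nop10 followed at 352 CPM, Nhp2 at 266, Nop56 at 189, Gar1 at 98.7 and Fbl at 34.2. Of the neighbours in this order, Ncl lay above Dkc1 and Gar1 above Fbl in all 12 libraries. The other 7 neighbouring pairs kept their order in 6 to 10 libraries and are not separated by it. Ncl alone made up 48.3% to 62.5% of the summed level of the 10.

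**Figure D1:**
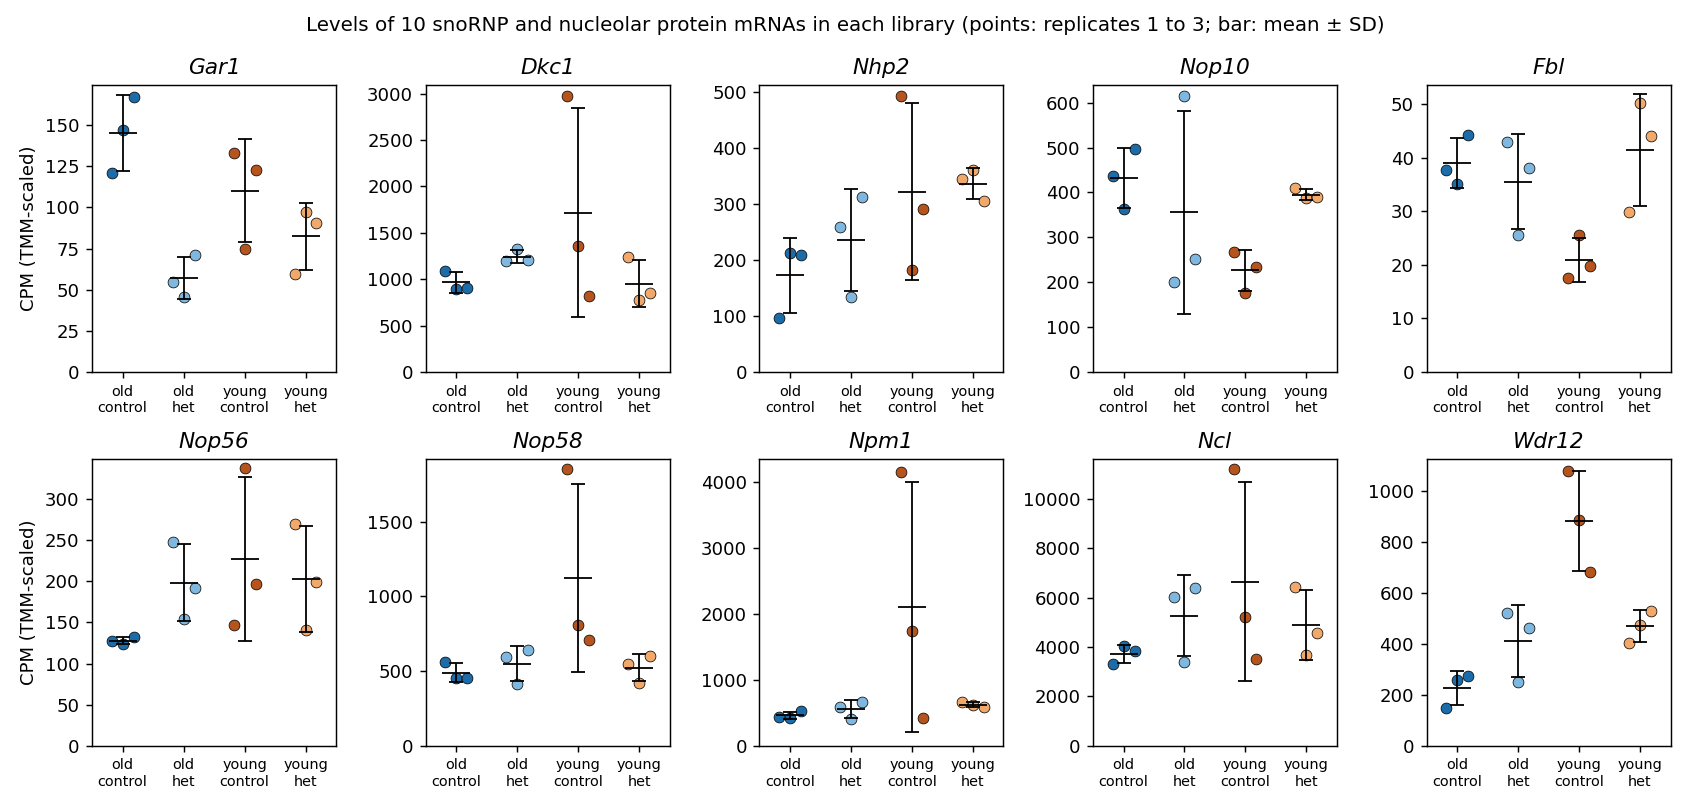
Level of each of the 10 mRNAs in each library (points, CPM on TMM-scaled totals, linear axes from 0) in the 4 groups of 3, with the mean and SD as bars. The wide bars of Dkc1, Nop58, Npm1 and Ncl in young control come from 1 or 2 high libraries, while the 3 young control points of Wdr12 all lie above every other library.

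In the control mice, Wdr12, Npm1 and Nop58 were lower in old than in young progenitors, and no member was called higher. The call is an adjusted p under 0.05 by edgeR's quasi-likelihood test over all genes tested, which 6.98% of all genes passed in this comparison (296 higher and 444 lower), against 3 of 10 members. The median log2 change of the 10 was -0.83, with a median of 0.22 over all genes tested, and 7 members had negative and 3 positive values. With total counts in place of TMM scaling the members' median was -0.52 and that of all genes 0.52. The members called then were Wdr12 and Npm1, lower, and Nop10, higher, among 1006 of 10604 genes called.

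Wdr12 stood at 149, 258 and 273 CPM in old controls 1 to 3, at 252, 462 and 522 CPM across the old hets, and at 404, 476 and 531 CPM across the young hets. In young controls 1 to 3 it stood at 1078, 887 and 683 CPM. All young controls were thus above each of the 9 other libraries, and the old controls were below all young libraries. The log2 difference between old and young control was -1.96 (SE 0.35, adjusted p = 0.00229 by edgeR). It passed the threshold in 19 of 20 alternative settings, with values from -2.17 to -1.37. With the mitochondrial rRNA share of each library as a covariate it was -1.37 (adjusted p = 0.361), and without young controls 1 and 2 it was -1.64 (adjusted p = 0.0296). Without old control 1 it was -1.73 (adjusted p = 0.0204).

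The partners of Wdr12 in PeBoW did not pass the test. Pes1 was at 160 ± 19.8 CPM (SD, n = 3) in old control and 210.1 ± 39.1 CPM in young control, a log2 difference of -0.39 (SE 0.29, adjusted p = 0.442 by edgeR). Bop1 was counted rarely, at 15.2 ± 8.29 CPM in old control and 3.35 ± 4.41 CPM in young control, and its log2 difference of 2.10 had an SE of 1.22 (adjusted p = 0.314 by edgeR).

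Npm1 was at 436, 421 and 524 CPM in old controls 1 to 3 and at 4159, 1737 and 415 CPM in young controls 1 to 3. Young controls 1 and 2 were thus far above all other libraries, while young control 3 was at the level of the old controls and the groups overlapped. The old hets had 594, 414 and 669 CPM and the young hets 667, 625 and 583 CPM. Among the young controls the highest library had 10.0 times the level of the lowest, the widest ratio of any member in any group. The log2 difference between old and young control was -2.19 (SE 0.51, adjusted p = 0.0131 by edgeR) and passed in 13 of 20 alternative settings. Among single libraries, leaving out old control 1, old control 2 or young control 1 lost the call. It was -1.27 (adjusted p = 0.102) without young control 1 and 0.10 (adjusted p = 0.896) without young controls 1 and 2.

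Nop58 was at 561, 455 and 454 CPM in old controls 1 to 3 and at 1851, 809 and 710.0 CPM in young controls 1 to 3. The groups did not overlap, and young control 1 was more than 2 times above the next library. The old hets held 594, 416 and 643 CPM and the young hets 549, 422 and 598 CPM, all below the lowest young control. The log2 difference between old and young control was -1.20 (SE 0.36, adjusted p = 0.0474 by edgeR). It passed in 9 of 20 alternative settings, with values from -1.55 to -0.59, and lost the call without any 1 of the old controls. It was -0.69 (adjusted p = 0.247) without young control 1 and -0.59 (adjusted p = 0.389) without young controls 1 and 2.

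The other C/D proteins did not pass in this comparison. Nop56, which pairs with Nop58 in the particle, was at 127, 124 and 132 CPM in old controls 1 to 3 and at 147, 338 and 197 CPM in young controls 1 to 3. The groups did not overlap, and the log2 difference of -0.82 had an SE of 0.35 (adjusted p = 0.160 by edgeR). With the mitochondrial rRNA share as covariate it was 0.04 (adjusted p = 0.987). Young control 1, the highest library for Nop58, was the lowest young control for Nop56. The ratio of Nop58 to Nop56 was 12.6 there, against 2.39 and 3.60 in young controls 2 and 3 and 3.45 to 4.40 in the old controls. Fbl, the methyltransferase, had 37.7, 35.1 and 44.2 CPM in old controls 1 to 3 and 17.5, 25.5 and 19.9 CPM in young controls 1 to 3. It pointed the other way, with a log2 difference of 0.91 (SE 0.45, adjusted p = 0.226 by edgeR), and its groups did not overlap.

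Of the H/ACA proteins none passed between the control groups. Nop10 was at 437, 364 and 497 CPM in old controls 1 to 3 and at 268, 177 and 235 CPM in young controls 1 to 3, without overlap (log2 difference 0.93, SE 0.37, adjusted p = 0.128 by edgeR). With the mitochondrial rRNA share as covariate its difference was -0.11 (adjusted p = 0.960). Dkc1 was at 1091, 896 and 906 CPM in old controls 1 to 3 and at 2973, 1362 and 814 CPM in young controls 1 to 3. Its groups overlapped, young control 3 being the lowest of the 6, and the log2 difference was -0.83 (SE 0.38, adjusted p = 0.193 by edgeR). For Dkc1 the young control libraries set the value: it was -1.23 and passed without young control 3 (adjusted p = 0.0375), -0.23 without young control 1 (adjusted p = 0.744) and 0.19 without young controls 1 and 2 (adjusted p = 0.784). Nhp2 had 96.1 to 213 CPM in old control and 182 to 493 CPM in young control (log2 difference -0.91, adjusted p = 0.171 by edgeR). Gar1 had 121 to 167 CPM in old control and 74.8 to 133 CPM in young control, overlapping ranges with a log2 difference of 0.38 (adjusted p = 0.537 by edgeR).

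Ncl, the member with the most tags, had 3315, 4032 and 3842 CPM in old controls 1 to 3. In young controls 1 to 3 it had 11202, 5220.1 and 3535 CPM. Young control 3 lay within the old control range, and the log2 difference of -0.83 (SE 0.40) did not pass (adjusted p = 0.216 by edgeR). Without young controls 1 and 2 it was 0.03 (adjusted p = 0.981). In all, 5 members had control groups that did not overlap, Nop10 and Fbl with the old and Nop56, Nop58 and Wdr12 with the young group higher, against 31.2% of all genes tested.

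**Figure D2:**
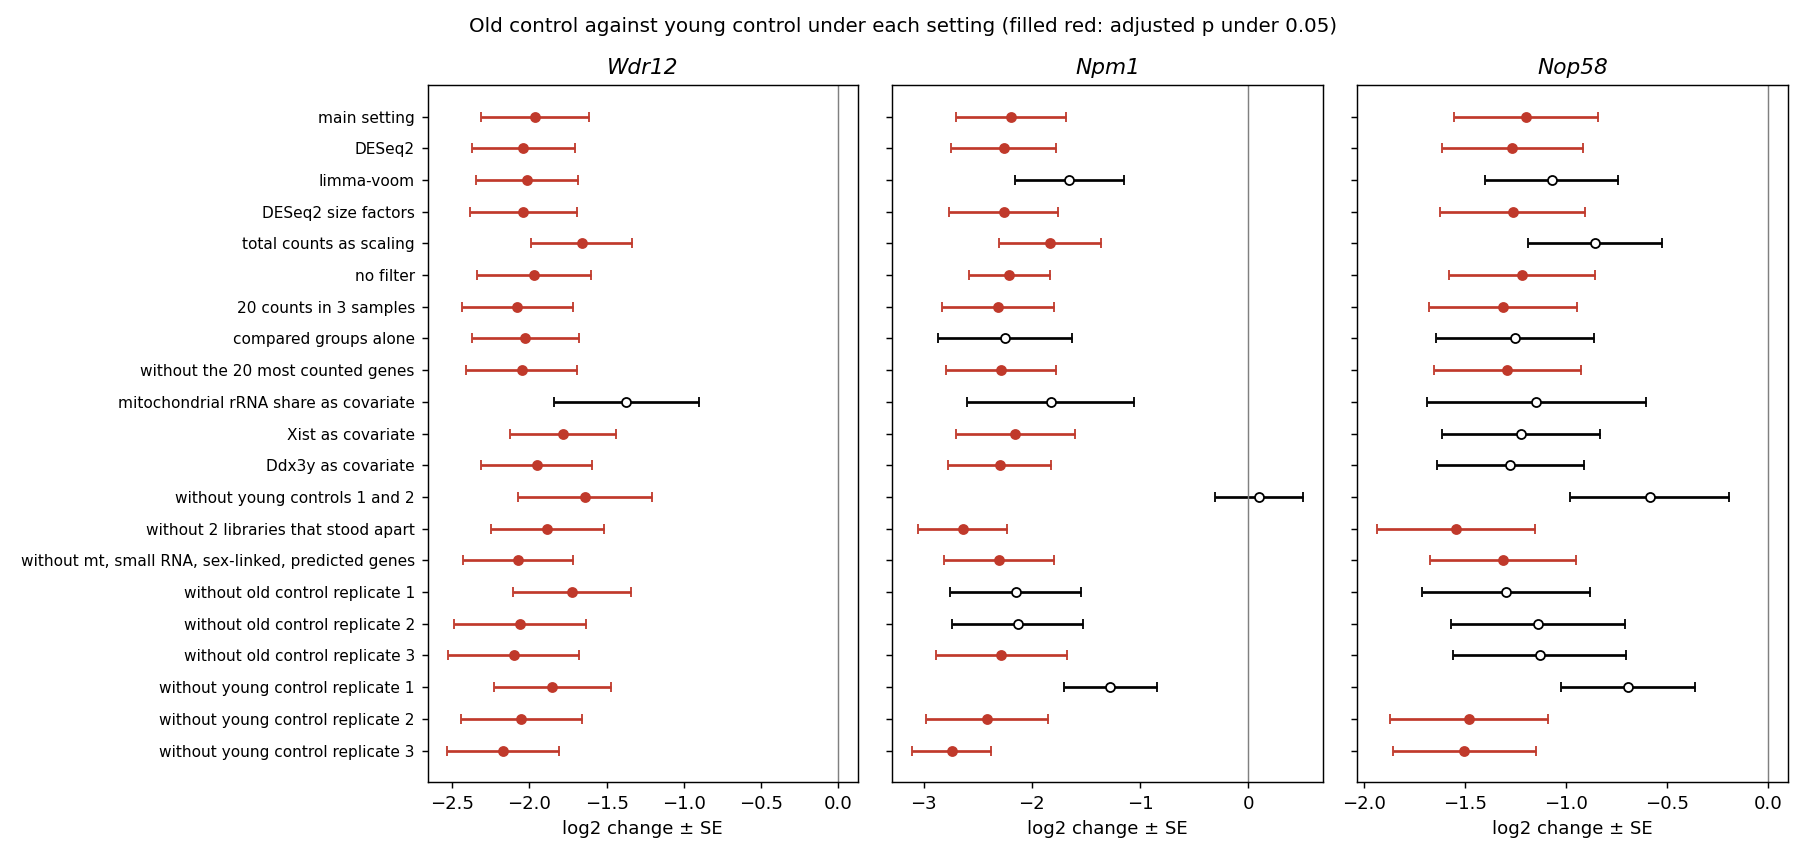
Log2 change (old control minus young control) of Wdr12, Npm1 and Nop58 with its SE under the main setting and each of 20 alternatives, filled red where the adjusted p was under 0.05; the horizontal scales differ between panels. Wdr12 stays between -2.17 and -1.37, while Npm1 moves to 0.10 without young controls 1 and 2.

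Other measured features moved with the control groups. The mitochondrial rRNA share of counts was 1.70% to 2.38% in old control and 4.35% to 8.22% in young control. The summed level of 10 B and T lymphoid markers was 28.6 to 79.6 CPM in old control and 146 to 247 CPM in young control. Of its 5 tested genes 3 were lower in old control. Cd79a had no count in either control group, and Cd3e and Cd3g had none in young control. The sum of 8 monocyte and dendritic markers was 1194 to 1611 CPM in old control against 445 to 896 CPM in young control, with 2 of 7 tested genes higher and none of the 8 without counts in either group. The sum of 8 megakaryocyte markers was 225 to 522 CPM against 101 to 178 CPM, with 0 of 7 tested called. For 10 stem and multipotent markers it was 1598, 443 and 454 CPM in old controls 1 to 3 against 253 to 409 CPM. Of these 2 of 7 tested were higher, and Ly6a had no counts in young control. Erythroid sums of 12 markers overlapped, at 763 to 2317 CPM in old and 1500 to 1830 CPM in young control. Of 11 tested erythroid genes 10 had negative values and 0 were called, and Alas2 had no counts in young control. The sum of 12 cell cycle genes overlapped, at 3970 to 4276 CPM in old and 3106 to 4031 CPM in young control, with 0 of 12 called. The mitochondrial rRNA share did not overlap between the control groups, so a fit with it as covariate can hardly tell it apart from the group. The marker sums entered no fit. The part of these features in the differences of Wdr12, Npm1 and Nop58 was not tested. In bulk samples, fewer cells of a type and less RNA per cell cannot be told apart.

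In the young mice no member was called between het and control, where 0.424% of all genes (45) were called by edgeR. Without adjustment 6 of the 10 had a p under 0.05, against 14.0% of all genes tested. The values are not independent of those above, since both comparisons share the young controls. The median log2 difference of the 10, het minus control, was -0.43, beside 0.08 over all genes tested. The groups did not overlap for 4 members, higher in young het for Nop10 and Fbl and lower for Nop58 and Wdr12, against 16.8% of all genes. Other features separated these groups too. The mitochondrial rRNA share was 3.0% to 3.51% in young het and 4.35% to 8.22% in young control. The sum of 12 neutrophil and granulocyte markers was 18275 to 25481 CPM in young het and 10695 to 15273 CPM in young control, with 1 of 12 genes called higher and none without counts. The sum of 8 basophil and mast cell markers was 685 to 951 CPM against 177 to 479 CPM, with 1 of 5 tested higher, Fcer1a and Cma1 without counts in young control and Gzmb in young het. The sum of 10 B and T lymphoid markers was 102 to 131 CPM against 146 to 247 CPM, with 0 of 5 tested called and Cd3e and Cd3g without counts in both groups. The mitochondrial rRNA share did not overlap here either, so the covariate fit can hardly tell it apart from the group. The marker sums entered no fit, and the part of these features in the members' values was not tested.

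Npm1 had the smallest p of the members in the young mice. With the library levels given above, its log2 difference was -1.75 (SE 0.50, adjusted p = 0.118 by edgeR). Without young control 3 it was -2.24 (adjusted p = 0.00582), and without young controls 1 and 2 it was 0.59 (adjusted p = 0.515). No young het had a count of Ddx3y, and with Ddx3y as a covariate the difference was -0.77 (adjusted p = 0.601). Nop58 differed by -1.10 (SE 0.36, adjusted p = 0.165) and Wdr12 by -0.91 (SE 0.34, adjusted p = 0.226), both by edgeR. DESeq2 called Npm1 (adjusted p = 0.0115) and Nop58 (adjusted p = 0.0306), and edgeR without a filter on low counts called Npm1 (adjusted p = 0.00108). Nop58 was at -0.44 (adjusted p = 0.605) and Wdr12 at -0.54 (adjusted p = 0.584) without young controls 1 and 2.

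Among the snoRNP proteins in the young mice, Nop10 was at 409, 388 and 389 CPM in the young hets, above the 177 to 268 CPM of the young controls. The log2 difference was 0.80 (SE 0.37, adjusted p = 0.326 by edgeR), and 0.071 with the mitochondrial rRNA share as covariate. Fbl was at 29.9, 50.3 and 44.0 CPM in the young hets, above the 17.5 to 25.5 CPM of the young controls (log2 difference 1.0, SE 0.45, adjusted p = 0.316 by edgeR). Dkc1 had 1238, 773 and 849 CPM in the young hets and 814 to 2973 CPM in the young controls, so that the groups overlapped. Its log2 difference was -0.85 (adjusted p = 0.317 by edgeR). This was 0.23 without young controls 1 and 2 and -0.29 with Ddx3y as a covariate. The remaining members were Ncl at -0.44, Gar1 at -0.43, Nop56 at -0.15 and Nhp2 at 0.06 on the log2 scale. Ncl was at 0.47 and Nop56 at 0.041 without young controls 1 and 2. Nhp2 ranged from 305 to 359.9 CPM in the young hets and Ncl from 3672 to 6431 CPM.

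In the old mice no member was called between het and control, and no gene at all was called by edgeR (0.0%), with 380 of 10604 genes (3.58%) under an unadjusted p of 0.05. DESeq2 and limma-voom called 0 genes as well, and edgeR without a filter on low counts called 11, none of them a member. The median log2 difference of the 10, het minus control, was 0.32, beside -0.05 over all genes tested. Of the 10, 3 had groups that did not overlap, against 11.1% of all genes: Gar1, lower in old het, and Dkc1 and Nop56, higher in old het. The sums of each of the 8 marker lists and the mitochondrial rRNA share overlapped between these groups, which does not show that they were alike. The share was 4.78%, 1.40% and 4.75% in old hets 1 to 3 and 1.70% to 2.38% in old control. All 7 tested megakaryocyte genes had negative values (median log2 difference -1.12). Of 7 tested stem and multipotent genes 5 were negative and 2 positive (median -1.69). The part of these features in the members' values was not tested.

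Gar1, an H/ACA protein that joins the particle late in its assembly, had the lowest unadjusted p of the members here. It was at 55.0, 45.7 and 70.9 CPM in old hets 1 to 3 and at 121, 147 and 167 CPM in old controls 1 to 3. The highest old het lay well below the lowest old control. The log2 difference was -1.34 (SE 0.35, adjusted p = 0.999 by edgeR), with values from -1.49 to -1.20 over 20 alternatives, none of which passed. Dkc1, its partner, was at 1197, 1324 and 1204 CPM in old hets 1 to 3, above the 896 to 1091 CPM of the old controls (log2 difference 0.36, SE 0.38). The ratio of Dkc1 to Gar1 was 5.42 to 9.02 in the old controls and 17.0 to 29.0 in the old hets. It was 6.61 to 22.4 in the young controls and 7.96 to 20.8 in the young hets, which overlap.

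Nop56 was at 248, 155 and 192 CPM in old hets 1 to 3, above the narrow 124 to 132 CPM of the old controls (log2 difference 0.63, SE 0.35). Wdr12 was at 522, 252 and 462 CPM in old hets 1 to 3, and old het 2 lay within the old control range. Its log2 difference was 0.86 (SE 0.34), with an unadjusted p under 0.05, and the adjusted p of all 10 members was 0.999 by edgeR. Nop10 was at 199.8, 615 and 252 CPM in old hets 1 to 3, so that old het 2 held more than any other library and the other 2 less than all old controls. Ncl had 6026, 3407 and 6399 CPM and Nhp2 259, 135 and 312 CPM in the same libraries, each lowest in old het 2. Other features split these libraries in the same way. The neutrophil and granulocyte sum was 11075, 21898 and 10927 CPM in old hets 1 to 3, and the mitochondrial rRNA share was lowest in old het 2. Their part in these values was not tested.

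Between old het and young het no member was called, against 0.00943% of all genes (1 gene), and no member had an unadjusted p under 0.05, against 6.28% of all genes. None of the 10 had groups without overlap, against 14.0% of all genes. The largest log2 differences, old het minus young het, were -0.53 for Gar1 (SE 0.35) and -0.52 for Nhp2 (SE 0.39). Wdr12 differed by -0.19 (SE 0.34), Npm1 by -0.16 (SE 0.49) and Nop58 by 0.07 (SE 0.35) here.

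The difference between the het effect in old and in young mice was tested as an interaction. No member was called, against 0.0849% of all genes (9), while 5 of the 10 had an unadjusted p under 0.05, against 12.8% of all genes. The median of the 10 was 0.87 (old effect minus young effect, log2), beside -0.18 over all genes tested. Wdr12 had 1.77 (SE 0.48, adjusted p = 0.118), Npm1 2.03 (SE 0.70, adjusted p = 0.214) and Nop58 1.27 (SE 0.50, adjusted p = 0.278), all by edgeR. Of the 10, 7 had positive and 3 negative values. Dkc1 had 1.21 (SE 0.54, adjusted p = 0.343 by edgeR). Nop10 went the other way, at -1.08 (SE 0.51, adjusted p = 0.386 by edgeR). It passed without old het 2 at -1.74 (adjusted p = 0.0323) and was -0.07 with the mitochondrial rRNA share as covariate. Wdr12 passed with DESeq2 (adjusted p = 0.00624), without a filter on low counts (adjusted p = 0.0496) and without old het 2 (adjusted p = 0.0228). Without young controls 1 and 2 it was 1.43 (adjusted p = 0.207). Npm1 passed with DESeq2 (adjusted p = 0.0443), without a filter on low counts (adjusted p = 0.0131), without young control 3 (adjusted p = 0.0182) and without both old control 1 and young control 3 (adjusted p = 0.0442). Its value was 1.11 without young control 1 (adjusted p = 0.453) and -0.28 without young controls 1 and 2 (adjusted p = 0.825).

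**Figure D3:**
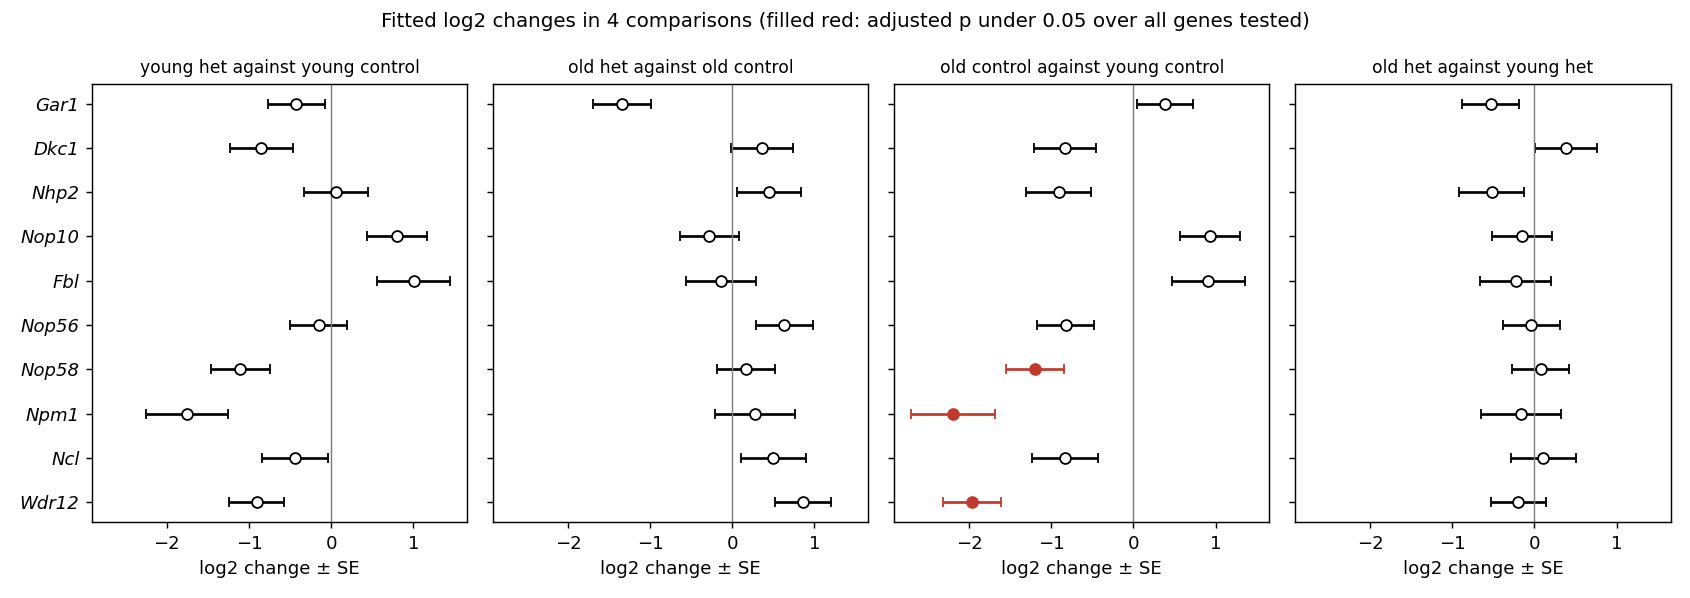
Fitted log2 change of each member with its SE in 4 comparisons (edgeR), filled red where the adjusted p over all genes tested was under 0.05. The 3 filled points are Wdr12, Npm1 and Nop58 between old and young control, and the values between the het groups run from -0.53 to 0.38.

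The members did not vary as 1 block. Over the 12 libraries, Dkc1, Nop58, Npm1 and Ncl had Pearson r of log2 levels from 0.79 to 0.87 in their 6 pairs. Spearman's rho in these pairs was 0.33 to 0.81. These genes were put together with the data known, so their high r does not test whether they form a set. The highest r of a pair outside them was 0.73, for Npm1 with Wdr12. After subtraction of the group means, which keeps young controls 1 and 2 in, r in the 6 pairs was 0.78 to 0.88. Without young controls 1 and 2 it fell to 0.03 to 0.78 in these pairs. The highest r of all 45 pairs was then 0.87, for Nhp2 with Wdr12. Over all 45 pairs of members the median r was 0.12, with 26 positive and 19 negative values. Nop10 was negative with 7 of the 9 other members (median r -0.47). These values describe 12 libraries that share groups and differ in depth, and no p is given for them.

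**Figure D4:**
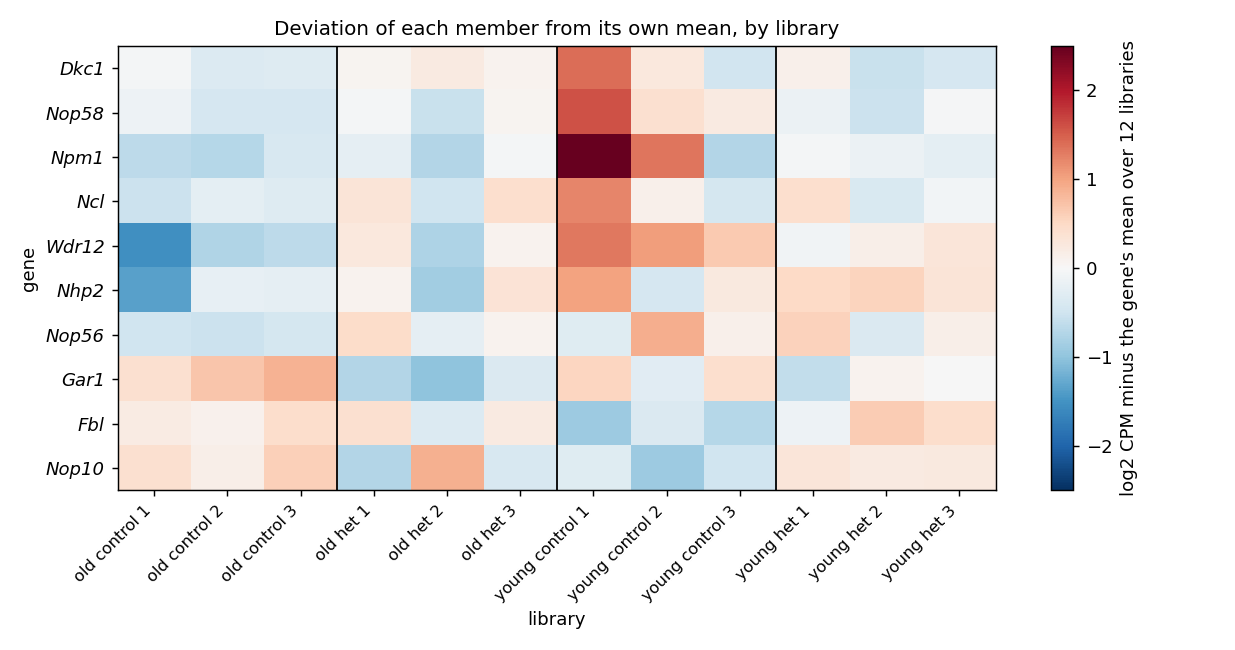
Deviation of each member's log2 CPM in each library from its own mean over the 12 libraries (colour scale, log2; red above and blue below the mean), with lines between the groups. Young control 1 is deepest red for Dkc1, Nop58, Npm1, Ncl, Wdr12 and Nhp2 and blue for Fbl, and the old controls are blue for Wdr12 and red for Gar1, Fbl and Nop10.

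The summed level of the 10 was 22320.3, 10812 and 7023 CPM in young controls 1 to 3. The old controls averaged 6788 ± 364 CPM (SD, n = 3), the old hets 8922 ± 1865 and the young hets 8527 ± 1726. Young control 1 alone exceeded the rest by more than 2 times. Of 5822 other genes with a mean of at least 20 CPM, those most like the members' mean log2 level over the 12 libraries were Slc7a6os (r = 0.95), Atp1b3 and Gps2 (0.94), Anp32b and Baz1b (0.93) and Naa15 (0.92). Without young controls 1 and 2 their r was 0.77 to 0.86.

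For other genes of ribosome production, the counts between the control groups stand against the 6.98% of all genes called there. Of 15 factors that assemble snoRNPs 0 passed, with a median log2 change of 0.25 beside 0.22 over all genes. Of 40 genes of the small subunit processome, which cuts and folds the precursor of the small subunit's RNA, 1 passed. This was Wdr3, at 133 ± 24.6 CPM (SD, n = 3) in old control and 354 ± 72.6 in young control (log2 change -1.42, SE 0.32, adjusted p = 0.0117 by edgeR), and the list's median was -0.08. Of 40 tested genes of large subunit assembly 1 passed, Mrto4, which acts on the stalk of that subunit, at 295 ± 144 CPM in old and 810.1 ± 424 CPM in young control (log2 change -1.46, SE 0.42, adjusted p = 0.0407 by edgeR). The median of that list was -0.19. Of 13 tested genes of RNA polymerase I and its factors 0 passed, with a median of 0.29.

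Of 4 tested genes of a list on telomerase and Myc, Wrap53 passed. It encodes a protein that brings H/ACA RNAs of one class, telomerase RNA included, to Cajal bodies, and stood at 40.6 ± 6.92 CPM (SD, n = 3) in old control and 107 ± 24.0 CPM in young control. Its log2 change was -1.40 (SE 0.40, adjusted p = 0.0410 by edgeR). In the other 3 comparisons between groups and in the interaction, 0 genes of these 5 lists passed. Within the small subunit list Wdr3 had the smallest p in both het comparisons, and differed by -1.12 het minus control (SE 0.32, adjusted p = 0.117 by edgeR) in the young and by 0.79 (SE 0.32, adjusted p = 0.999 by edgeR) in the old mice. Its interaction was 1.91 (SE 0.45, adjusted p = 0.0833 by edgeR).

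Some members hold snoRNA genes. In GRCm38, 4 members (Dkc1, Nop56, Nop58 and Ncl) hold 13 snoRNA genes, of which 6 had a row in the table by symbol and 1 had enough counts to be tested. This was Snora75 in Ncl, with 1, 16 and 22 counts in old controls 1 to 3 and 39, 10 and 55 counts in young controls 1 to 3. Its log2 change between old and young control was -2.79 (SE 1.22, adjusted p = 0.173 by edgeR). Reads at this symbol may also come from the host RNA, and 3′ tags are primed on poly(A), which mature snoRNAs lack.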

How the data were processed

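RNA of sorted myeloid progenitors was read in 12 libraries from a Lexogen kit for 3′ ends of mRNA, per the labels' protocols. The deposited values are raw counts per gene symbol, which the authors did not normalize. The tools named are HTSeq 0.6.1, STAR 2.4 and DESeq2, with build mm9, per the submitters' processing notes. The sources used here give no annotation, strand setting or use of molecular identifiers.

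Genes passing filterByExpr (minimum count 10, minimum total 15; 10604 genes) were tested with edgeR 4.0.16 in R 4.3.3, with TMM scaling and the quasi-likelihood F test, in 1 fit of the 4 groups without covariates (biological coefficient of variation 0.535). P-values were adjusted by Benjamini-Hochberg at 0.05. The SE is the absolute log2 change over the square root of F. Levels are CPM on TMM-scaled totals of the tested genes, but marker sums and the levels of Ly6a are CPM of all counts. Replicate numbers name libraries and pair nothing. Members, gene lists and tests were chosen with earlier results of these data known. All members were named, with the listed pathway genes that passed (at most 4 a list) or else the smallest p. Alternatives were DESeq2 1.42.0, limma-voom (limma 3.58.1), other scalings and filters, covariates and left-out libraries. The scripts were tested on simulated data. The values of 1 lymphoid marker are not reported here. Windows and loci came from RefSeq (GRCm38.p6) and GENCODE, not from mm9.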

Additional observations from a re-analysis of the deposited data

How the results depend on the processing

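No paired analysis was possible because the labels give the libraries no shared replicate numbers. Between old and young control, 3 members were called by the main setting, among 740 of all genes. With limma-voom 1 member was called, among 517 of all genes, and with the compared groups alone 1 member, among 541 of 9312 genes. With the mitochondrial rRNA share as covariate 0 members and 0 of all genes were called. Leaving out 1 library gave 1 to 4 members (1 each without old control 1, old control 2 and young control 1, and 4 without young control 3). Over all genes, 315 were called without old control 1, 335 without old control 2 and 394 without old control 3. For the fits that left out 1 young control no count over all genes is given here. Their counts of members therefore have no background beside them, and the same holds for the counts without young control 3 given below. The members' median of -0.83 became -0.52 with total counts as scaling and 0.064 without young controls 1 and 2. It was -1.12 to -0.41 with 1 library left out. The median of all genes was 0.22 in the main setting, 0.52 with total counts as scaling and 0.53 without young controls 1 and 2. In this comparison 5 of the 199 members' values under alternatives changed sign. Without young controls 1 and 2 these were Npm1 (0.10), Dkc1 (0.19) and Ncl (0.03), and with the mitochondrial rRNA share as covariate Nop10 (-0.11) and Nop56 (0.04).

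Between young het and young control, 0 members were called by the main setting, 2 with DESeq2, 1 without a filter on low counts and 1 without old control 1 and young control 3. With 1 library left out the count was 0 to 1, the 1 being without young control 3. The median of -0.43 became 0.22 without young controls 1 and 2, while that of all genes went from 0.08 to 0.33. Over all genes, 45 were called by edgeR, 355 by DESeq2, 258 without a filter and 241 without old control 1 and young control 3. For the interaction 0 members were called, 2 with DESeq2, 2 without a filter, 1 without old control 1 and young control 3, and 0 to 2 with 1 library left out (2 without old het 2, 1 without young control 3). Of all genes, 9 of 10604 were called in the main setting, 296 of 10604 with DESeq2 and 216 of 18849 without a filter. Without old control 1 and young control 3 it was 59 of 10886 genes, and without old het 2 it was 294 of 11047. The members' median interaction of 0.87 became 0.30 with the mitochondrial rRNA share as covariate, 0.12 without young controls 1 and 2, and 0.50 to 1.16 with 1 library left out. The median of all genes was -0.18 in the main setting, -0.08 with that covariate and -0.53 without young controls 1 and 2. The cause of these changes was not tested. The fit of the compared groups alone gives no interaction. In old het against old control and old het against young het, 0 members were called under each of the 20 alternatives. The fits without young controls 1 and 2 and with Ddx3y as a covariate were chosen after seeing the data. Where young control is left with 1 library, that library is assumed to vary like the other groups. Counting error limits Fbl most, with 15 counts in its shallowest library.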
